A study of Rattus norvegicus with 8 samples.

Results

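The ERK feedback genes described here are 10 genes whose products damp or report signalling through the ERK MAP kinases: the dual-specificity phosphatase genes Dusp1, Dusp4, Dusp5 and Dusp6, the Sprouty genes Spry1, Spry2 and Spry4, the Spred genes Spred1 and Spred2, and the transcription factor gene Etv5. They were chosen by gene name from the 35901 gene names on the array and carry 13 of its 45598 non-control probes. The data are expression profiles of primary hippocampal neurons from Wistar rats of postnatal day 0-1, measured on 8 one-colour Agilent arrays. In 4 samples the neurons received a lentiviral vector expressing an shRNA against rat Sirt6, and in the other 4 a scrambled shRNA, infection being done in both groups at 3 days in vitro with a multiplicity of 6. RNA was taken after 7 further days, at day 10 in vitro, from cells kept in NeurobasalA with B27 and Glutamax. SIRT6 is a nuclear sirtuin that removes acetyl groups from histones, and the series was made to study what it does as neurons take shape. One shRNA was set against one scrambled shRNA, so any other effect of either vector is part of the comparison, and nothing in the labels says that samples within a group were separate cultures or animals. The p-values therefore cover the spread among the samples used, and that spread may be technical.

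Growth factors such as BDNF and FGF bind receptor tyrosine kinases and, through Ras, Raf and MEK, lead to phosphorylation of ERK, which in neurons also follows synaptic activity and calcium entry. Active ERK drives transcription of genes that then restrain it. The Dusp proteins remove phosphate from MAP kinases, Sprouty proteins act near the receptor and Ras, and Spred proteins recruit neurofibromin, which turns Ras off. Etv5 belongs to the PEA3 group of ETS transcription factors, which FGF signalling induces, and it is often read together with Dusp6 and the Sprouty genes as an output of the pathway.

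Of the 10 genes, 9 passed the filter on dim probes and were tested. Dusp1, Dusp4, Spry2 and Spred1 were lower with the Sirt6 shRNA, by 1.16-fold to 1.54-fold, and none of the 9 was called higher. Those 4 calls compare with 14.8% of all 22593 genes tested called lower, 15.6% called higher and 30.4% called in either direction, a call being an adjusted p under 0.05 in limma. A call on the feedback genes is therefore not rare in this comparison, in which 9451 of all genes had an unadjusted p under 0.05, as did 7 of these 9. The median log2 fold change of the 9 was -0.21, against 0.02 for all genes, and 7 of the 9 values were below 0. None reached a 2-fold change. The targeted gene, Sirt6, was lower in all 4 Sirt6 shRNA arrays, with a processed signal of 476.6 ± 20.2 in Sirt6 shRNA neurons and 1336 ± 13.1 in scrambled shRNA neurons (SD, n = 4 each), which left 34.6% of the control level on the normalized scale (limma adjusted p = 5.55e-06).

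Probes of Dusp1, Spry2 and Spred1 are shown because a value is a measure of what these 60-base stretches hybridise to. Sequences are the array's own, 5′ to 3′ in the sense of the transcript. For Dusp1 and Spry2 the probe shown stands for the gene, and for Spred1 it is one of the further probes, not the brightest.
Dusp1: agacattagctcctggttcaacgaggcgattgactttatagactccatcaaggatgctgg
Spry2: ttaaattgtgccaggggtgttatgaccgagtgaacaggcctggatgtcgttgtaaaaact
Spred1: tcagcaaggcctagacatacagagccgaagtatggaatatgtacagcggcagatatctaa
In the rat build rn4, the files place the Dusp1 probe at chr10:16944342-16944661 on the plus strand, a span of 320 bases. The Spry2 probe lies at chr15:90009823-90009882 on the minus strand and the Spred1 probe shown at chr3:103243556-103243615 on the plus strand. Which exon or UTR each probe lies in was not analysed here.

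Values below are log2 processed signals minus each array's 75th percentile, in the order of replicates 1 to 4, so 0 stands for that percentile. A level belongs to its own probe, and levels of different genes are not compared.

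Dusp1 was lower in Sirt6 shRNA neurons. It encodes a nuclear phosphatase that acts on JNK, p38 and ERK and is itself an immediate early gene. Its level was -4.75, -4.86, -4.92 and -4.83 in the Sirt6 shRNA arrays, against -4.33, -4.13, -4.16 and -4.27 in the scrambled arrays. Every Sirt6 shRNA array lay below every scrambled array. The log2 fold change was -0.62 ± 0.057 (SE, n = 4 per group), with a 95% interval of -0.75 to -0.49, which leaves 65.1% of the control level (limma adjusted p = 0.000224). The probe is dim: its processed signal was 11.6 ± 0.474 in Sirt6 shRNA neurons and 17.3 ± 1.41 in scrambled shRNA neurons (SD, n = 4 each), well above background on all 8 arrays. The size of the difference depends on how the background is handled, since it was -0.31 with 16 added to each signal and -0.15 after normexp background correction with an offset of 50 (limma adjusted p = 0.0292), while the call held in all 21 alternative settings.

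Dusp4, a nuclear phosphatase of ERK, JNK and p38, was also lower. Its level was -3.63, -3.47, -3.67 and -3.66 with the Sirt6 shRNA, against -3.29, -3.00, -3.32 and -3.48 with the scrambled shRNA. The groups overlapped by 1 array on each side, Sirt6 shRNA replicate 2 standing just above scrambled replicate 4. The log2 fold change was -0.34 ± 0.10 (SE, n = 4 per group; limma adjusted p = 0.0371). Leaving out single arrays ended this call in 5 of 8 cases: the limma adjusted p was 0.0818 without Sirt6 shRNA replicate 1, 0.0888 without replicate 3 and 0.0842 without replicate 4, and it was 0.0718 without scrambled replicate 1 and 0.0613 without replicate 3. After normexp the log2 fold change was -0.12 (limma adjusted p = 0.0821).

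Dusp5 and Dusp6 did not pass the threshold. Dusp5 is an ERK-specific phosphatase that also holds ERK in the nucleus. Its level was 1.73, 1.72, 1.80 and 1.91 with the Sirt6 shRNA, against 1.85, 2.31, 1.99 and 2.22 with the scrambled shRNA. The scrambled arrays spread more widely than the others, and their lowest, replicate 1, lay below the highest Sirt6 shRNA array. The log2 fold change was -0.30 ± 0.104 (SE, n = 4 per group), with a 95% interval of -0.54 to -0.06 and a limma adjusted p of 0.0619, which was 0.0198 without scrambled replicate 1.

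Dusp6 is the cytoplasmic phosphatase most specific to ERK. Its level was 3.27, 3.50, 3.30 and 3.47 with the Sirt6 shRNA, against 3.51, 3.67, 3.57 and 3.61 with the scrambled shRNA. The groups did not overlap, although Sirt6 shRNA replicate 2 and scrambled replicate 1 almost met. The log2 fold change was -0.20 ± 0.066 (SE, n = 4 per group), with a 95% interval of -0.36 to -0.05 and a limma adjusted p of 0.0510, just outside the threshold, and it was 0.0328 without Sirt6 shRNA replicate 2. This probe was printed in 10 spots on each array, and the SD among the spots of one array was between 0.0619 and 0.0916 in log2. Between arrays the SD of the mean over spots was 0.12 in Sirt6 shRNA neurons and 0.070 in scrambled shRNA neurons.

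The Sprouty genes had fold changes of both signs, and only Spry2 was called. Differences between these genes were not tested. Spry1 encodes an inhibitor of receptor tyrosine kinase signalling. Its level was 0.22, 0.08, 0.28 and 0.34 with the Sirt6 shRNA, against -0.03, 0.03, 0.02 and 0.13 with the scrambled shRNA. The groups overlapped, with Sirt6 shRNA replicate 2 below scrambled replicate 4. The log2 fold change was 0.19 ± 0.064 (SE, n = 4 per group; limma adjusted p = 0.0532), above 0 but not called. The adjusted p was 0.0158 without Sirt6 shRNA replicate 2 and 0.0492 without scrambled replicate 4, as limma gave them.

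Spry2, which is found at the membrane with Grb2 and Cbl, was lower on its brighter probe. That probe read 0.88, 0.84, 0.99 and 1.07 with the Sirt6 shRNA, against 1.12, 1.20, 1.14 and 1.17 with the scrambled shRNA. The groups did not overlap, and the log2 fold change was -0.21 ± 0.057 (SE, n = 4 per group; limma adjusted p = 0.0255). The second probe, on the same strand at chr15:90008464-90008523, read -0.93, -0.95, -1.17 and -0.91 with the Sirt6 shRNA, against -1.11, -0.89, -0.86 and -0.93 with the scrambled shRNA. Its groups overlapped and its log2 fold change was -0.04 ± 0.077 (limma adjusted p = 0.732 over kept probes). The log2 fold changes of the probes differed by -0.17, which an exact permutation test over the arrays did not separate (two-sided p = 0.171, adjusted p = 0.629 over 4 probe pairs). With 4 arrays per group the smallest p this permutation test can give is 0.0286 before adjustment. Its result therefore does not show that the 2 probes agree. The call on the brighter probe was lost without Sirt6 shRNA replicate 1 (limma adjusted p = 0.0676) or 2 (0.0512) and without scrambled replicate 2 (0.0683) or 4 (0.0604), and the mean of both probes gave -0.13 (0.112).

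Spry4, another Sprouty inhibitor of the pathway, read 1.47, 1.31, 1.38 and 1.48 with the Sirt6 shRNA, against 1.30, 1.35, 1.22 and 1.37 with the scrambled shRNA. The groups overlapped. Its log2 fold change was 0.10 ± 0.054 (SE, n = 4 per group; limma adjusted p = 0.201), and the 95% interval of -0.02 to 0.22 covers 0.

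Spred1 was lower on each of its 3 probes. Its product binds neurofibromin and brings it to Ras at the membrane. The brightest probe, at chr3:103250014-103250073, read 0.21, 0.12, 0.15 and 0.17 with the Sirt6 shRNA, against 0.54, 0.50, 0.50 and 0.43 with the scrambled shRNA. The groups were far apart for their spread, and the log2 fold change was -0.33 ± 0.038 (SE, n = 4 per group; limma adjusted p = 0.000617), which leaves 79.6% of the control level. The probe whose sequence is given above read -1.74, -1.75, -1.65 and -2.0 with the Sirt6 shRNA, against -1.39, -1.62, -1.33 and -1.45 with the scrambled shRNA, a log2 fold change of -0.34 ± 0.091 (limma adjusted p = 0.0268 over kept probes). The third, at chr3:103248100-103248159, read -3.06, -3.22, -3.00 and -3.21 with the Sirt6 shRNA, against -2.75, -2.73, -2.74 and -2.66 with the scrambled shRNA, a log2 fold change of -0.40 ± 0.060 (limma adjusted p = 0.00213 over kept probes). No overlap was seen on any of the 3 probes. The exact permutation tests of the differences among them gave two-sided p = 0.314 or more, where 0.0286 is the smallest possible.

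Spred2 could not be tested. This relative of Spred1 was well above background in 0 of 4 Sirt6 shRNA arrays and in scrambled replicates 3 and 4 only. It read -7.09, -6.39, -5.78 and -5.83 with the Sirt6 shRNA, against -6.07, -6.28, -5.26 and -4.86 with the scrambled shRNA. The groups overlapped and most readings were not above background, so no fold is given.

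Etv5 showed no difference that these arrays could measure. Its level was 4.62, 4.48, 4.62 and 4.70 with the Sirt6 shRNA, against 4.64, 4.62, 4.61 and 4.58 with the scrambled shRNA. The scrambled arrays lay inside the range of the others. The log2 fold change was -0.01 ± 0.051 (SE, n = 4 per group; limma adjusted p = 0.939), with a 95% interval of -0.12 to 0.11, and its sign turned with quantile normalization and with other settings.

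**Figure D1:**
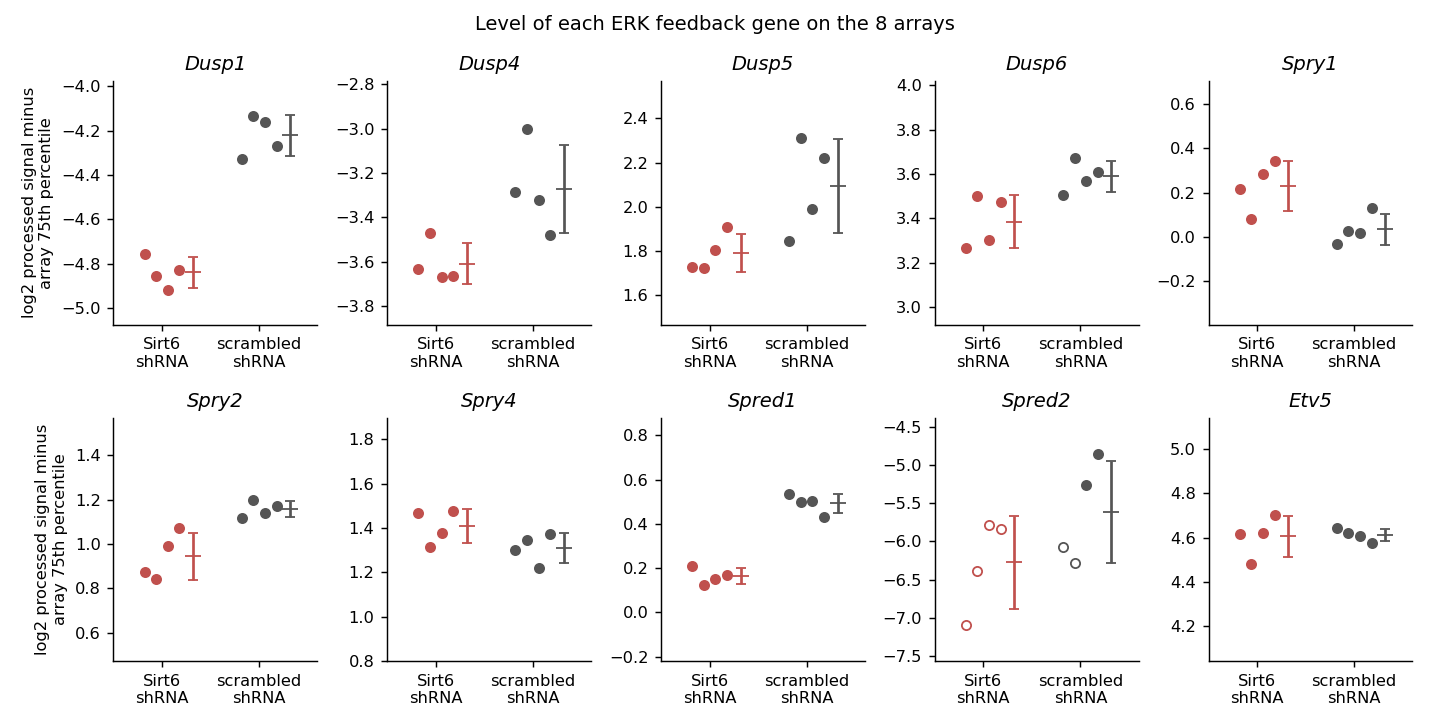
Level of each of the 10 ERK feedback genes on the 8 arrays, as log2 processed signal minus the array's 75th percentile, with Sirt6 shRNA arrays on the left of each panel and scrambled arrays on the right. Points are arrays in the order of replicates 1 to 4, open where the probe was not well above background, bars are the mean ± SD (n = 4), and the panels share the same height of scale except Spred2. Dusp1, Dusp6, Spry2 and Spred1 have all Sirt6 shRNA points below all scrambled points.

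Read together, 4 of the 9 tested genes had groups that did not overlap, Dusp1, Dusp6, Spry2 and Spred1, and in each the Sirt6 shRNA arrays were the lower ones. Over all genes tested, 33.4% had groups that did not overlap, and 16.1% had every Sirt6 shRNA array below every scrambled array. Averaged over the 9 genes after centring each on its own mean, the Sirt6 shRNA arrays stood at -0.105, -0.134, -0.110 and -0.032 in log2, against 0.0404, 0.178, 0.0698 and 0.0924 for the scrambled arrays. Dusp1 widens the gap between the groups in this mean, and Spry1 and Spry4 narrow it. Within the Dusp genes all 4 fold changes were below 0, while among the 3 Sprouty genes 1 was below 0 and 2 above.

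**Figure D2:**
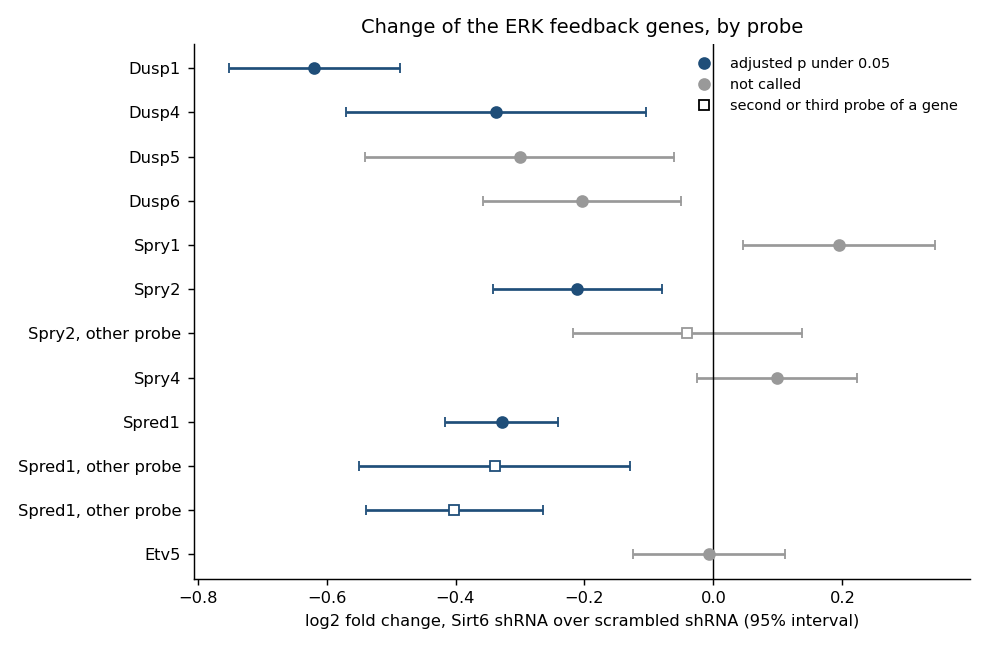
Log2 fold change, Sirt6 shRNA over scrambled shRNA, of every kept probe of the 9 tested genes, with its 95% interval from limma. Filled circles are the probe that stands for the gene, squares are further probes, and dark blue marks an adjusted p under 0.05. Dusp1 lies furthest to the left at -0.62, the 3 Spred1 probes lie between -0.40 and -0.33, and the 2 Spry2 probes differ in whether they are called.

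Calls were also taken under 21 alternative settings. Dusp1 and Spred1 were called in all of them, Spry2 in 14, Dusp4 in 13, Spry1 in 9, Dusp6 in 8, Dusp5 in 5, and Spry4 and Etv5 in 0. The calls on Dusp4 and Spry2 ended with centring on the E1A spike-in probes (limma adjusted p = 0.0669 and 0.286) and with no filter on dim probes (0.0628 and 0.0573). Dusp5, Dusp6 and Spry1 had adjusted p values close to the threshold, and the number of feedback genes called lower ranged from 2 to 6.

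**Figure D3:**
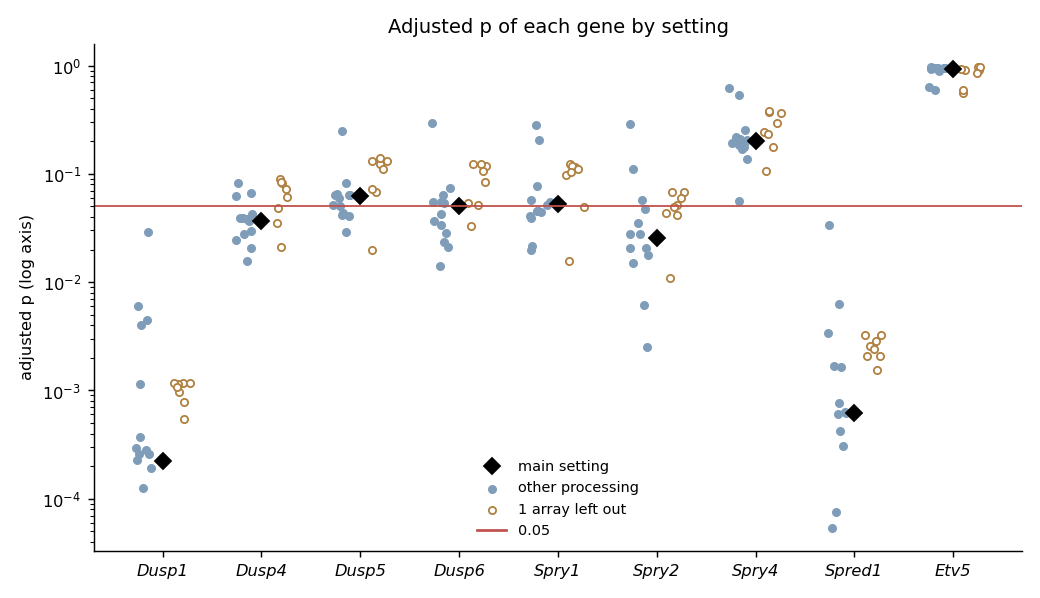
Limma adjusted p, on a log axis, of the 9 tested genes under the main setting (diamonds), 13 other ways of processing (filled circles) and the omission of each of the 8 arrays (open circles). The red line is 0.05: Dusp1 and Spred1 lie below it under each setting drawn, Spry4 and Etv5 above it, and the other 5 genes fall on both sides.

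Profiles over the 8 arrays were set side by side by the root mean square difference of log2 levels, each gene centred on its own mean, as a description. The genes most like Dusp6 were Drc3 at 0.0328, Rhoq at 0.0350 and Gle1 at 0.0353. Of the other feedback genes Spry2 stood nearest to Dusp6, at 0.0951, and ranked 1134 among all genes by nearness. Spry1 and Spry4 were 0.0768 apart, Spry4 ranking 889 by nearness to Spry1 and Spry1 ranking 2334 by nearness to Spry4. Etv5 was about as near to Spry4, at 0.0781. The arrays share their labelling, slide and scaling, so likeness on this measure is also likeness in those.

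Of the 10 genes, 9 had an entry among the RefSeq promoter sequences of the assembly GRCr8, which run from 250 bases before to 50 bases after a gene's start, and Spry2 had 2 entries. They were searched on both strands for 5 motifs that stand for the factors through which calcium and ERK act on transcription: the cAMP response element TGACGTCA, its half-site TGACG, which also lies inside the full element, the ETS core CCGGAA, the AP-1 site TGANTCA and the CArG box bound by serum response factor. The stretch of 250 bases before the start is shown for Dusp1 and Spred1, whose fall held in each setting run, and for Dusp5, which matched 3 of the 5 motifs. Capitals mark motif matches.
Dusp1: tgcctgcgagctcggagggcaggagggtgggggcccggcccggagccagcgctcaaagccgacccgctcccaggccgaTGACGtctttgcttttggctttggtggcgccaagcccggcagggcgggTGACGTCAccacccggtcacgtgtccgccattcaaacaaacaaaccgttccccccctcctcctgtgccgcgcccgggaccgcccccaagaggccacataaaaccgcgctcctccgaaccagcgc
Spred1: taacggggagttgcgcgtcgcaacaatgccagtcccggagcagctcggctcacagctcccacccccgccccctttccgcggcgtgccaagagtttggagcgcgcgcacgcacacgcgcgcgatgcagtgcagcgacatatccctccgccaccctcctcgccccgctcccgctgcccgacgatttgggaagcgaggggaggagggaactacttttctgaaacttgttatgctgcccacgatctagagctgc
Dusp5: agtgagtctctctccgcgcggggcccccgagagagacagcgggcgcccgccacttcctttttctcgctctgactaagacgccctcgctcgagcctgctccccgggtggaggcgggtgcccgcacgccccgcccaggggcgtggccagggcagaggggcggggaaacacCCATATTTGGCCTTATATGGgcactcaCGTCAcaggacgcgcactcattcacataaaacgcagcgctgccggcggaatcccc
The sequences lie at chr10:17184603-17184852, chr3:124436980-124437229 and chr1:262543524-262543773 in GRCr8, all on the plus strand. Dusp1 holds the full cAMP response element, its first base at position -124, and a separate half-site at -172. It is the only one of the 9 genes with the full element, which 1.83% of all 33469 promoters of 300 bases hold. The half-site is far more common, in 21.2% of all promoters, and was found for Dusp1, Dusp5, Spred2 and Spry2. Dusp5 has a pair of adjoining CArG boxes, first bases at -82 and -72, where 1.64% of all promoters have at least 1. The ETS core, in 15.0% of all promoters, was found for Dusp5, at position 5 after the start and so past the stretch shown, and for Spry2 and Spry4. The AP-1 site, in 7.33% of all promoters, was found in none of the 10 sequences, and the Spred1 stretch held none of the 5 motifs. A match is a string of letters in this window, and nothing on binding was measured.

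The other genes of the pathway moved in both directions. Among 13 further Dusp genes, all tested, 3 were lower and 2 higher, with a median log2 fold change of -0.01. Dusp9, like Dusp6 a cytoplasmic ERK phosphatase, changed by -0.64 ± 0.082 (SE, n = 4 per group; limma adjusted p = 0.00103). Dusp16, a JNK and p38 phosphatase, changed by -0.56 ± 0.053 (limma adjusted p = 0.000246), and by -0.35 on its other probe. Dusp26 was at -0.27 and Dusp2, an inducible nuclear ERK phosphatase, at 0.29 ± 0.083 (limma adjusted p = 0.0335). The other gene called higher was Dusp22 at 0.24, named here because it completes the count. The Dusp2 call was lost without Sirt6 shRNA replicate 2 (limma adjusted p = 0.0751), 3 (0.0702) or 4 (0.0792) and without scrambled replicate 1 (0.0797) or 3 (0.0679). After normexp Dusp9 was at -0.21, still called.

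Of 14 other genes known as outputs of ERK signalling, 13 were tested, of which 3 were lower and 1 higher, with a median of 0.01. This count uses the probe that stands for each gene. Spry3, a further Sprouty gene, was not called, at 0.15, while its other probe gave 0.73. Ier3, an early response gene, changed by -0.38 ± 0.041 in log2 (SE, n = 4 per group; limma adjusted p = 0.000441). Etv1, which belongs to the PEA3 group with Etv5, was at -0.27 (limma adjusted p = 0.00541). Errfi1, a feedback inhibitor of the EGF receptor, was at -0.24 (limma adjusted p = 0.00171), with -0.31 on its other probe. Myc, the growth-promoting transcription factor, was at 0.14 (limma adjusted p = 0.0450), a call that was kept only without Sirt6 shRNA replicate 2 (0.0270) among the omissions of 1 array, the other 7 giving 0.0572 to 0.113.

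Of 14 immediate early genes, which neuronal activity induces partly through ERK, 11 were lower and 0 higher, and the median log2 fold change was -0.85. Earlier results of these data had already shown this group to fall. Npas4, a transcription factor induced by calcium entry, was well above background on 0 of 4 Sirt6 shRNA arrays and on all 4 scrambled arrays. It counts among the 11 but passed the filter through the scrambled arrays alone. Set against the lowest signal above background, it was 4.48-fold lower under the main processing. Its log2 fold change ran from -2.93 to -0.47 over 20 alternative settings, so the size of this fall depends on the processing. Fosb was at -2.38 (-1.06 after normexp), Arc, which acts at synapses on glutamate receptors, at -1.92, and Fos at -1.05 in log2. Dusp1, a feedback gene that is also an immediate early gene, was at -0.62. Fosl2, Jun and Egr3 did not pass, at -0.12, -0.00 and -0.42. These values and the count use the probe that stands for each gene. The 2 further probes of Fosl2 gave -0.37 and -0.21, and the other probe of Jun gave -0.22. Among the genes called lower, Egr2 was at -0.93 with -0.16 on its other probe, and Ier2 at -0.30 with -0.47.

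Upstream, the ligands, receptors and kinases showed no single direction. Of 19 growth factor genes 16 were tested, with 3 lower and 2 higher. This count uses only the probe that stands for each gene, and further probes did not always match it. Igf1 was not called, with a log2 fold change of -0.06, yet its 4 further probes ranged from -1.44 to -1.20. Pdgfa was not called either, with 0.10, and its 2 further probes ranged from -0.41 to -0.38. The size of the Igf1 change and the direction of the Pdgfa change therefore depend on the probe. The further probes of Fgf2 (-0.62) and Hgf (-1.01) kept the sign of the gene's call. Hgf, the ligand of the receptor Met, was at -1.06 (-0.61 after normexp), the neurotrophin gene Ntf3 at 0.82 (0.48 after normexp), Fgf18 at 0.54 and Fgf2 at -0.53 in log2. Of 17 receptor tyrosine kinase genes 16 were tested, with 4 lower and 4 higher. Ntrk2, the receptor of BDNF, was at -0.56 on its brightest probe, its 5 further probes ranged from -0.62 to 0.13, and the mean of its probes gave -0.25. Egfr was at -0.45, Kdr, a VEGF receptor, at 0.41 (0.25 after normexp) and Met at 0.25.

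Of 37 genes from the adaptors to the ERK substrates 36 were tested, with 11 lower and 7 higher and a median of -0.04. Shc1, an adaptor that links receptors to Grb2, was at -0.97, Elk1, an ERK-activated partner of serum response factor, at -0.64, Hras at -0.48 and Frs3, an adaptor of FGF receptors, at 0.45 (0.14 after normexp) in log2. Of the kinases at the core of the cascade, Map2k1 and Map2k2, which encode MEK1 and MEK2, were not called, at -0.06 and -0.03, and nor was Mapk3, which encodes ERK1, at 0.05. Of 11 JNK and p38 pathway kinases 1 was lower and 3 higher. Map2k4, which activates JNK, was at -0.74 (-0.43 after normexp), Mapk8, JNK1, at 0.34 (0.22 for the mean of its probes) and Mapk14, p38 alpha, at 0.17. The brighter probe of Map2k7 gave 0.17 and the other -0.44, so its direction depends on the probe, and its call was lost without Sirt6 shRNA replicates 1, 3 or 4 and without scrambled replicates 1, 2 or 4 (limma adjusted p = 0.0583 to 0.0724). Among the genes named from these lists, centring on the E1A spike-in probes also ended the calls of Dusp26, Dusp2, Etv1, Errfi1, Myc, Met, Mapk8, Mapk14 and Map2k7, and median centring those of Dusp2, Myc, Mapk14 and Map2k7. Transcript levels carry no measure of ERK phosphorylation, which these arrays do not record.

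**Figure D4:**
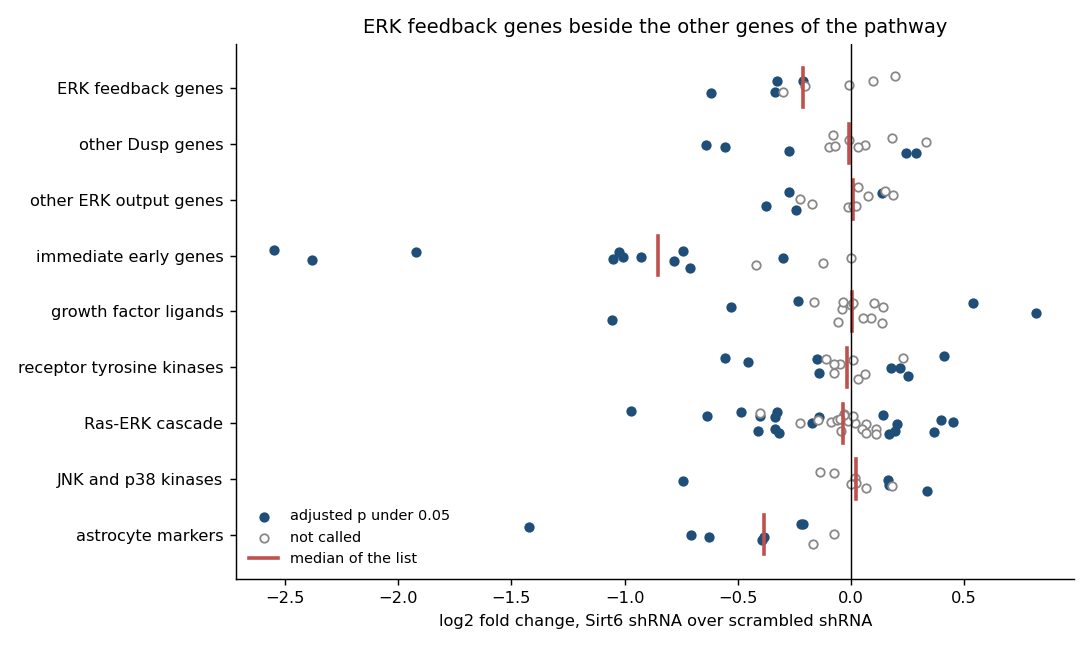
Log2 fold change, Sirt6 shRNA over scrambled shRNA, of each tested gene of the ERK feedback group, of 7 other lists of the pathway and of the astrocyte markers. Each point is a gene, filled where the adjusted p was under 0.05, and the red bar is the list's median. The feedback genes spread from -0.62 to 0.19 around a median of -0.21, and the immediate early genes lie around a median of -0.85. Their lowest point, Npas4 at -2.55, is a fitted value for a gene not above background with the Sirt6 shRNA, and its size depends on the processing.

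The cultures hold cells other than neurons, and markers of these differed between the groups. On each array 60.4% to 65.3% of probes were well above background, and the 9 neuronal markers, among them Rbfox3 and Map2, were above background on all 8 arrays. Of these 3 were higher, Rbfox3 at 0.25, Tubb3 at 0.32 and Map2 at 0.16 in log2, and 2 were lower, the GABA-synthesis genes Gad1 at -0.41 and Gad2 at -0.31. Their summed level, on a linear scale on which each array's 75th percentile is 1, was 107.0 to 122.2 in the Sirt6 shRNA arrays and 113.0 to 116.3 in the scrambled arrays. Of the 9 astrocyte markers 7 were lower and 0 higher, and their summed level was 233.6 to 256.8 in the Sirt6 shRNA arrays and 326.6 to 358.7 in the scrambled arrays, without overlap. Summed oligodendrocyte lineage markers also lay apart, at 42.3 to 44.2 in Sirt6 shRNA arrays and 47.5 to 52.6 in scrambled arrays, with 2 of 8 lower and 1 higher. Microglia markers, lower for 3 of 8 and higher for 0, summed to 12.9 to 24.7 in Sirt6 shRNA arrays and 19.6 to 27.0 in scrambled arrays. Fibroblast markers were higher for 3 of the 5 tested of 6 and lower for 0, at 36.8 to 39.7 in Sirt6 shRNA arrays and 30.3 to 32.0 in scrambled arrays, with Lum above background on 3 arrays. Endothelial and mural markers, higher for 2 of the 5 tested of 8 and lower for 0, summed to 1.1 to 1.22 in Sirt6 shRNA arrays and 1.08 to 1.23 in scrambled arrays, with Rgs5 above background on no array and Cldn5 and Flt1 on 2. In RNA from a whole culture, fewer cells of a type and less RNA per cell cannot be told apart. The part of these other cells in the lower Dusp1, Dusp4, Spry2 and Spred1 levels was not tested. All 8 arrays lay on 1 slide, the Sirt6 shRNA arrays in row 2 and the scrambled arrays in row 1. Row and group cannot be told apart.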

How the data were processed

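RNA of 4 Sirt6 shRNA and 4 scrambled shRNA samples was measured on 1-colour Agilent arrays, grouped by the labels. Intensity values are, per the file headers and per the submitters' processing notes, those of Agilent Feature Extraction 11.5.1.1, background-subtracted and detrended by that software, not normalized between arrays. The deposited table of log2 values, per the file's own columns, equalled these signals minus 1 constant per array (SD of the difference at most 0.0029), with its 75th percentile at 0.01 or below and column medians from -3.71 to -3.60. It served as an alternative.

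Outlier and control spots were left out, spots of a probe averaged in log2, and each array's 75th percentile over 45598 probes subtracted. A probe was kept if well above background on at least 4 of 8 arrays (28620 probes). Genes were named through a RefSeq table of GRCr8, used for names (21109 probes by systematic name, 2631 by another accession, 5159 by symbol, 352 by an older symbol, 16347 keeping the file's name). The brightest kept probe stood for a gene. The test was limma's (version 3.58.1, R 4.3.3; lmFit and eBayes, two-sided, Benjamini-Hochberg over 22593 genes, or over kept probes for further probes), the code being tested on simulated data. A fold against a group with no array above background was set against each array's lowest signal above background, or the reading itself where higher. It applies to the main processing and is not a strict bound. A reading above that signal may still not be well above background. The genes named are all 10 feedback genes, Sirt6, and for each pathway list the 4 called genes of largest change, and other genes named were singled out after their values were seen. The feedback genes and lists were chosen with earlier results of these data known. Alternatives covered background correction, scaling, the dim-probe filter, probe choice, moderation, array weights, a replicate block and each array left out. The number of arrays limits the precision. One further probe sequence and the values of one further gene are not reported here.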

Additional observations from a re-analysis of the deposited data

Results flagged for a closer look

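One of the 96 group profiles examined stood out for a single array. On the second Spry2 probe, Sirt6 shRNA replicate 3 read -1.17 in log2 while the other 3 arrays of the group read -0.93, -0.95 and -0.91. Its gap to the nearest of them was 0.847 of the group's whole range, above Dixon's 95% critical value for 4 samples. Chance flags about 1 in 20 groups. This probe is not the one that stands for Spry2, whose call does not use it.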

How the results depend on the processing

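Of the feedback genes, 4 were called lower, and 2 to 6 over the 21 alternatives: 2 with centring on the E1A spike-in probes, 2 with no filter on dim probes and 2 to 4 with 1 array left out (2 without Sirt6 shRNA replicate 1). None was called higher, and 1, Spry1, was with 16 added before log2, array weights, eBayes trend and robust options, normexp, quantile normalization, the filter at all 8 arrays, the replicate block, and 0 to 1 with 1 array left out. Pathway genes called higher numbered 19, and 6 with E1A centring, 9 with median centring, 11 with no filter and 12 to 19 with 1 array left out (12 without Sirt6 shRNA replicate 1). The 36 called lower stayed between 25 and 44. Over all genes, 3351 were lower and 3523 higher, against 1512 and 1422 with E1A centring, and 1999 were higher with median centring, which moved the share of higher genes among those called to 35.2%, against 51.3%. The sign of Etv5, never called, turned to 0.011 with E1A centring, 0.0031 with array weights, 0.011 with normexp, 0.036 with quantile normalization, 0.035 without Sirt6 shRNA replicate 2 and 0.0037 without scrambled replicate 1, and ran from -0.039 to 0.035 over all omissions of 1 array. Map2k7 turned to -0.14 with the mean of its probes. The cause of these shifts was not tested.

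Whether replicate numbers pair the samples was not settled. Same-numbered arrays of the groups shared a column of the slide, replicates 1 to 4 lying in columns 1 to 4. They deviated together with r of 0.064, 0.160, 0.133 and 0.033 across genes, all above 0. Arrays of unlike number gave r from -0.221 to 0.120, and not every array correlated best with its own number. With the number as a replicate block, 5 feedback genes were lower and 1 higher, and over all genes 3222 were lower and 3203 higher. Dim probes limit what is said of Dusp1, Dusp4 and Spred2.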
